A study of Mus musculus with 6 samples.

Results

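Transcripts of 10 genes of the insulin receptor, PI3 kinase and FoxO axis were followed in the whole mouse uterus after progesterone, among 18193 genes measured on the same arrays. The 10 genes are the insulin receptor Insr, the adaptors Irs1 and Irs2, the PI3 kinase inhibitor Pik3ip1, the regulatory subunit Pik3r1, the transcription factors Foxo1, Foxo3 and Foxo4, the kinase Pdk4 and the coactivator Ppargc1a. They were picked by name with the response of these arrays to progesterone already known, so their differences between the groups are given as a description, without a test. All 10 were found, each by a probe set with its symbol alone, and where a gene had several, the one brightest on average over the 6 arrays stands for it.

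The treated group received 1 mg of progesterone in 100 µl of sesame oil and the control group sesame oil alone, and uteri were collected 6 h later. All animals were female mice of a mixed background, 8 weeks old, whose ovaries had been removed at 6 weeks of age, which takes away most ovarian steroid. Both groups carried the floxed Gata2 allele (GATA2 f/f), an allele that a recombinase can delete, and no recombinase is named in the labels. Each group had 3 arrays, and the design text gives RNA pools of 3 mice. Nothing says whether each array held its own pool, so p-values reflect the spread among these samples, which may be technical. The number of arrays limits the precision.

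Insulin and insulin-like growth factors activate receptor tyrosine kinases, which phosphorylate the IRS adaptors, and these recruit PI3 kinase, the enzyme that makes the membrane lipid that activates the kinase Akt. Akt phosphorylates FoxO transcription factors, which then leave the nucleus, so FoxO target genes are typically expressed most when insulin signalling is low. FoxO factors are known to activate genes of this same axis, Insr and Irs2 among them, and FOXO1 is known in human endometrial stroma as a partner of the progesterone receptor in decidual cells.

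Levels are log2 values from RMA, which combines the probes of a probe set, and a difference of 1 is a doubling. Array medians lay between 5.51 and 5.53. Control probes for the bacterial TrpnX transcript lay between 2.87 and 3.34 and stand for background. Uterine cell types were present: the epithelial keratin Krt8 lay between 10.78 and 11.86, the stromal receptor Pdgfra between 11.93 and 12.24 and the smooth muscle actin Acta2 between 13.75 and 13.91. Some arrays stood apart. The neutrophil transcript S100a8 was 5.01, 12.02 and 12.48 on progesterone replicates 1 to 3, against 4.92, 4.34 and 11.82 on oil replicates 1 to 3. The liver transcript Alb was 8.71 on oil replicate 3 and between 3.96 and 4.29 on the other arrays.

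Of the 10 genes, 9 were lower on every progesterone array than on any oil array, and the groups overlapped for Pik3r1 alone. Among all genes the progesterone arrays lay below the oil arrays in 15.9%. In the fit across all genes (limma, Benjamini-Hochberg adjusted p under 0.05), 7 of the 10 were past the threshold as lower and 0 as higher, where 5.83% of all genes were lower and 11.7% passed in either direction. Irs1, Foxo3 and Pik3r1 were the genes not past it. Since the genes were chosen on this contrast, these counts describe the choice and are not evidence of a response of the axis. The median log2 change of the 10 genes was -0.60, against -0.02 over all genes. The whole tissue was measured, so fewer cells of a type and less RNA per cell cannot be told apart.

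**Figure D1:**
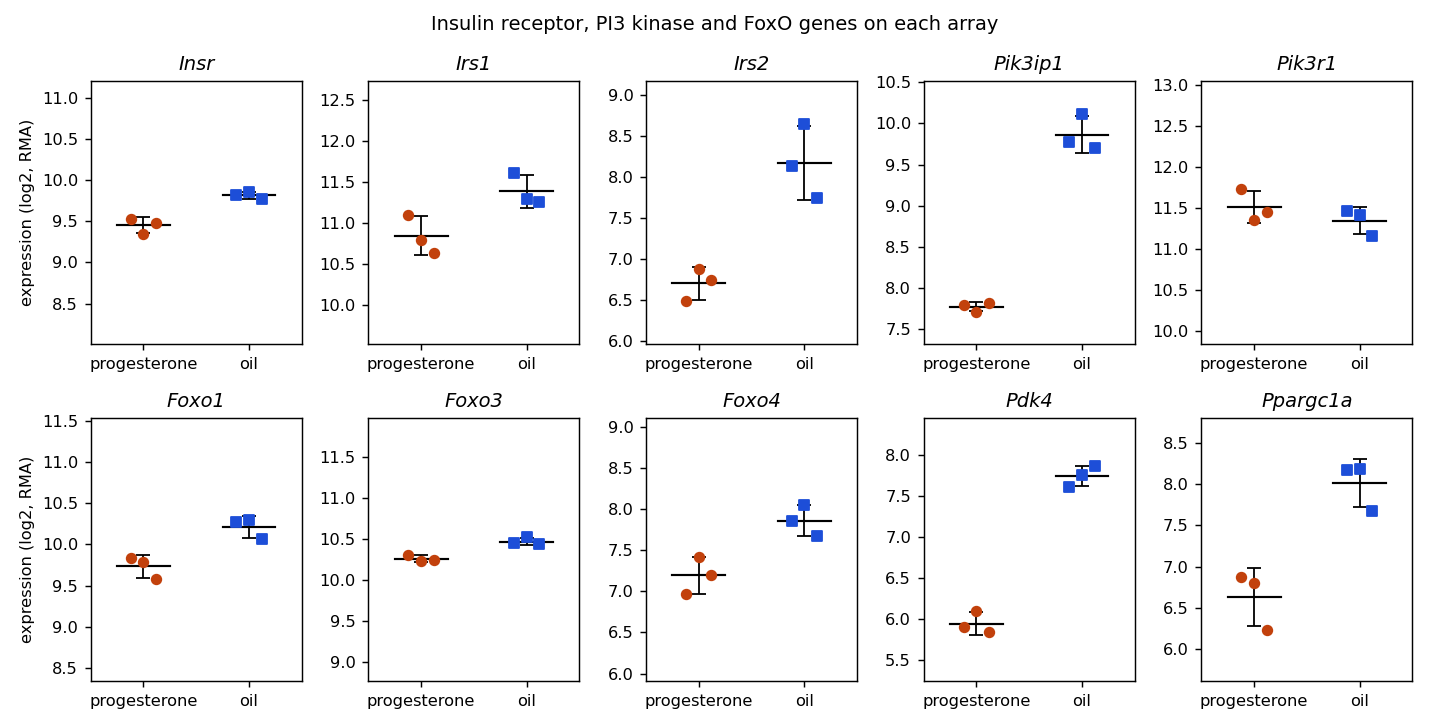
Log2 expression of the 10 genes on the 3 progesterone arrays (circles) and the 3 oil arrays (squares), with the mean as a line and the SD as a bar; every panel spans the same log2 range. Pik3ip1 and Pdk4 show the widest gaps between groups, and the groups overlap for Pik3r1.

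The receptor and its adaptors were lower after progesterone, Irs2 by far the most. Insr, the insulin receptor, was 9.53, 9.35 and 9.48 on the progesterone arrays, against 9.82, 9.86 and 9.77 on the oil arrays. Every progesterone array lay below every oil array, with 0.24 between the nearest pair. Its mean was 9.45 ± 0.0929 with progesterone and 9.82 ± 0.0451 with oil (SD, n = 3 each), or 1.29-fold lower. The other probe sets of Insr, at mean levels of 4.20 and 3.92, differed by -0.12 and 0.12 on the log2 scale with overlapping groups.

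Irs1, which couples insulin and IGF receptors to PI3 kinase, was 11.10, 10.79 and 10.64 with progesterone, against 11.61, 11.29 and 11.25 with oil. The groups lay apart by 0.15, less than the spread within either of them, and the means differed by -0.54 (1.45-fold lower). Irs2, whose transcript is known to change with fasting and feeding in liver, was 6.49, 6.88 and 6.74 with progesterone, against 8.13, 8.64 and 7.74 with oil. Its groups did not overlap, although the oil arrays spread widely. The mean was 6.70 ± 0.198 with progesterone and 8.17 ± 0.451 with oil (SD, n = 3 each), a log2 change of -1.47 or 2.76-fold lower, the 49th lowest of 18193 genes. Both adaptors had 1 probe set.

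The promoters of both adaptors are shown because each holds the same pair of motifs close together, which the choice of genes did not use. The spacing of the pair differs between them. Each line below holds 300 bases, from 250 before to 50 after the transcription start, taken from RefSeq with the mouse build GRCm38.p6 and written in the direction of the gene. Capitals mark the E-box CACGTG, which basic helix-loop-helix factors bind, and TGTTTTG, a form of the insulin response element that FoxO factors bind.
Irs1 promoter, chr1:82291390-82291689, minus strand: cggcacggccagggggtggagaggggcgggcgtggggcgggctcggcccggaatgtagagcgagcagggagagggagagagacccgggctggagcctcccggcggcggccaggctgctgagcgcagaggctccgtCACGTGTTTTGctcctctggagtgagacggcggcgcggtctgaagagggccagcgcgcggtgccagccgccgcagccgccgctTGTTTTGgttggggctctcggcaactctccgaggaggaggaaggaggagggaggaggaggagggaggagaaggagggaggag
Irs2 promoter, chr8:11008880-11009179, minus strand: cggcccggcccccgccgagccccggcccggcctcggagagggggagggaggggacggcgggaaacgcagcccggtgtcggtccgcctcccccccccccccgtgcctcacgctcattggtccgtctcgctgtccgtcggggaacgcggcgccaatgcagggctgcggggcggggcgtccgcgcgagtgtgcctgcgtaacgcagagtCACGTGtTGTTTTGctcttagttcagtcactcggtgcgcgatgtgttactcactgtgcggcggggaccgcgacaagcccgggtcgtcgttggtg
In Irs1 the E-box began at base -115 and the adjoining TGTTTTG at -111, sharing 2 bases, and a further TGTTTTG began at -32. In Irs2 the E-box began at -44 and TGTTTTG at -37, with 1 base between them. Searched on both strands, CACGTG was present in 7.15% and TGTTTTG in 6.28% of 32851 promoter windows of this length. The share of windows with both motifs close together was not counted. A match is a description of the letters and not a site of binding.

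At the level of PI3 kinase, the inhibitor was lower and the regulatory subunit was not. Pik3ip1 is a membrane protein that binds the catalytic subunit and restrains the enzyme. It was 7.79, 7.71 and 7.82 with progesterone, against 9.77, 10.12 and 9.70 with oil. The progesterone arrays were nearly level and far below all oil arrays, the nearest pair being 1.88 apart. The means were 7.77 ± 0.0569 with progesterone and 9.86 ± 0.225 with oil (SD, n = 3 each), a log2 change of -2.09 or 4.26-fold lower, the 8th lowest of all genes. A further probe set was 6.15, 6.30 and 6.51 with progesterone, against 8.77, 8.81 and 8.51 with oil, or 5.19-fold lower.

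The promoter of Pik3ip1 is shown because its transcript had the largest difference of the 10 genes. It held none of the motifs searched and has no capitals. Beside the E-box and the insulin response element, these were the consensus FoxO motif GTAAACA, the half-site TGACGT of the cAMP response element, and ACANNNTGT, a core shared by the elements of progesterone and glucocorticoid receptors. The FoxO motif was present for 4.05% and the receptor core for 7.9% of all 27025 genes with a window. Of the 10 genes, 8 had a window and 0 held either motif, which is no departure from shares this low. Insr and Foxo4 were not matched to a window.
Pik3ip1 promoter, chr11:3330481-3330780, plus strand: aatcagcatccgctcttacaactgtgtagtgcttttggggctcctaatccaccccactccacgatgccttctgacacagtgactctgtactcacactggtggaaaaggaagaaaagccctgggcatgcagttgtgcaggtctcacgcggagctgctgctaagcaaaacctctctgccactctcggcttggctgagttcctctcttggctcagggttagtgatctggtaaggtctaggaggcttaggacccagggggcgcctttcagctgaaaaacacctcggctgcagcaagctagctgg

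Pik3r1 encodes the p85 alpha regulatory subunit, which holds the catalytic subunit at IRS proteins. It was 11.73, 11.36 and 11.45 with progesterone, against 11.46, 11.42 and 11.16 with oil, so the groups overlapped. The means differed by 0.17, about the spread within a group, and by 0.06 without progesterone replicate 1. The other probe sets, 3 in number, differed by between 0.08 and 0.37, all with overlapping groups.

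The FoxO factors were all lower by modest amounts. Foxo1, which drives fasting genes in liver and takes part in decidualization, was 9.84, 9.78 and 9.58 with progesterone, against 10.27, 10.30 and 10.06 with oil. The groups were 0.22 apart at the nearest, and the gene was 1.39-fold lower (log2 change -0.48). Its main probe set has the suffix that marks probes able to match several transcripts, but further probe sets at mean levels of 8.93 and 8.11 differed by -0.39 and -0.38, also without overlap. Foxo3, which restrains growth of ovarian follicles, was 10.31, 10.23 and 10.24 with progesterone, against 10.45, 10.52 and 10.44 with oil. Its groups lay apart by 0.13 (SD 0.0436 in each), the gene was 1.16-fold lower, and a further probe set differed by -0.26 without overlap. Another probe set that carries the Foxo3 symbol among several was not used, the only 1 of this kind for the 10 genes. Foxo4, the family member on the X chromosome, was 6.97, 7.42 and 7.20 with progesterone, against 7.86, 8.05 and 7.67 with oil. It was 1.58-fold lower, the largest change of the FoxO factors, and its other probe set differed by -0.30 with overlapping groups. The low probe sets of Foxo1 and Foxo3, at mean levels of 3.95 and 4.17, differed by 0.07 and 0.12 with overlapping groups.

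Pdk4 and Ppargc1a, metabolic genes that FoxO factors are known to act on in liver or muscle, were both clearly lower. Pdk4, a kinase that switches off pyruvate dehydrogenase and so spares glucose, was 5.90, 6.10 and 5.84 with progesterone, against 7.61, 7.75 and 7.86 with oil. The nearest arrays of the groups were 1.51 apart. The means were 5.95 ± 0.136 with progesterone and 7.74 ± 0.125 with oil (SD, n = 3 each), a log2 change of -1.79 or 3.47-fold lower, the 17th lowest of all genes. Ppargc1a, the coactivator PGC-1 alpha that raises mitochondrial gene expression, was 6.87, 6.8 and 6.23 with progesterone, against 8.18, 8.19 and 7.68 with oil. Replicate 3 was the lowest array in both groups, and no progesterone array reached an oil array. The gene was 2.61-fold lower (log2 change -1.38), and its 5 probe sets gave between 2.13-fold and 2.75-fold, none with overlap.

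These promoters are shown as the regions in front of both metabolic genes. Capitals mark the reverse complement of TGACGT, a core of the cAMP response element, which began at base -50 of Ppargc1a and was present in 7.51% of all windows. The Pdk4 window held none of the motifs searched.
Pdk4 promoter, chr6:5496229-5496528, minus strand: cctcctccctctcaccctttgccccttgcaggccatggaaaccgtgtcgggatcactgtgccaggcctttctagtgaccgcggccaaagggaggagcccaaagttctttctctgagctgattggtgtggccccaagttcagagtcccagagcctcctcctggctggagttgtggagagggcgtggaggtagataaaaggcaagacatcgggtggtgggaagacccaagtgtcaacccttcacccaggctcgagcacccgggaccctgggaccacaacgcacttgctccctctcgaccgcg
Ppargc1a promoter, chr5:51567676-51567975, minus strand: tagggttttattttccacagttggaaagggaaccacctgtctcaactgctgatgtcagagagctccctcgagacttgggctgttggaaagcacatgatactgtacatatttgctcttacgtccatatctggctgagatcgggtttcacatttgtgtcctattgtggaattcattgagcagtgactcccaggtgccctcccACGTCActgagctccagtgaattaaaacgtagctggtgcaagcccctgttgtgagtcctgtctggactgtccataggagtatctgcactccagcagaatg

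Across the 26 probe sets of the 10 genes, 17 were lower on every progesterone array than on any oil array and 9 overlapped, against 13.5% lower in this way among all 34945 probe sets with 1 gene symbol. The 4 probe sets with a mean under 4.5 all overlapped. Apart from these, every probe set of Insr, the FoxO factors, Pik3ip1 and Ppargc1a was lower on average with progesterone, and all of Pik3r1 were higher on average.

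**Figure D2:**
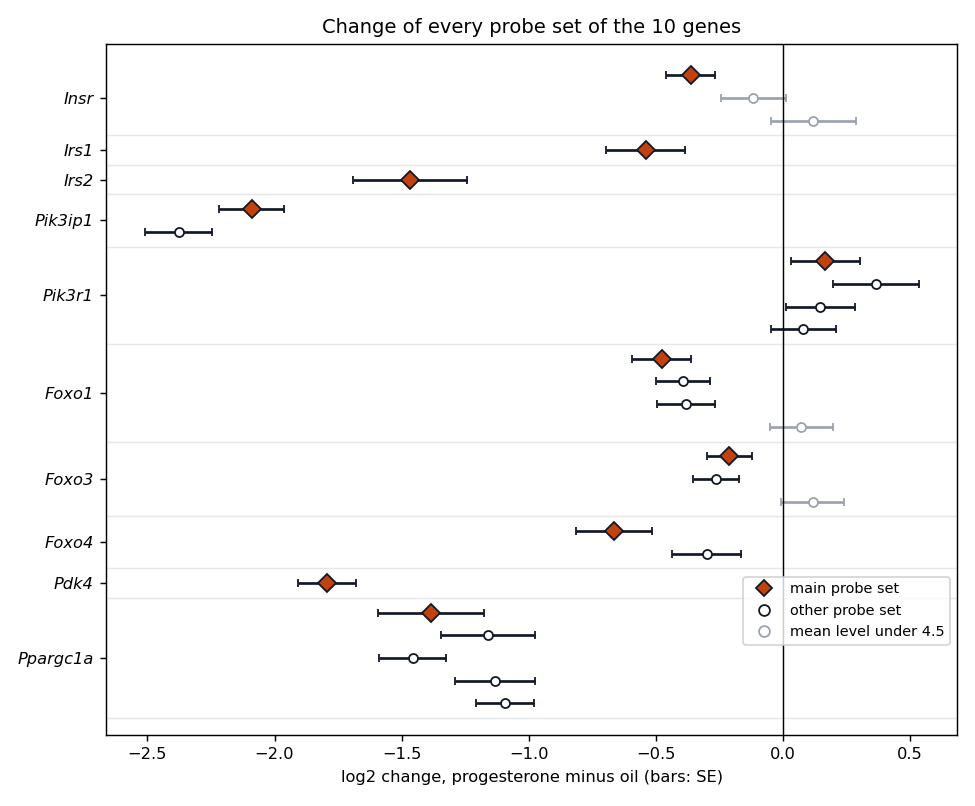
Log2 change (progesterone minus oil) with its SE from limma for the 26 probe sets; diamonds are the main probe sets, circles the others, and grey marks a mean level under 4.5. The probe sets of Pik3ip1 and of Ppargc1a lie together well below 0, and those of Pik3r1 lie between 0.08 and 0.37.

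When each array was left out in turn, the log2 change of Pik3ip1 lay between -1.96 and -2.17, that of Pdk4 between -1.73 and -1.87, that of Irs2 between -1.23 and -1.68 and that of Ppargc1a between -1.18 and -1.55. For Insr the range was -0.31 to -0.40, for Irs1 -0.43 to -0.67, for Foxo1 -0.40 to -0.55, for Foxo3 -0.19 to -0.24 and for Foxo4 -0.55 to -0.78. Without oil replicate 3, the array with the liver transcript, Pik3ip1 was at -2.17 and Pdk4 at -1.73. Of the 10 genes, 4 were past the threshold without progesterone replicate 3, where 626 of all 18193 genes were lower, and 4 without oil replicate 1, where 443 were. Without oil replicate 2 it was 3 of the 10 and 278 of all genes.

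Markers of other cell types moved with some of these values. Adipose tissue, which surrounds the uterus, expresses Irs1, Insr and Foxo1 as well. Adipoq, the fat cell hormone adiponectin, was 5.80, 7.21 and 4.39 with progesterone, against 8.02, 8.11 and 7.08 with oil. Of the 6 measured adipocyte markers 0 passed in limma, although 4 had an unadjusted p under 0.05, Lep was low on all arrays (3.57 to 3.82), and the summed level of the list ranged from 9.65 to 10.67 with progesterone and from 10.49 to 11.12 with oil. Progesterone replicate 2 and oil replicate 3 had like adipocyte levels, with 5 of the 6 markers slightly higher on the progesterone array (Adipoq by 0.13 and Fabp4 by 0.08). Between these arrays, chosen after their values were seen, Pik3ip1 differed by -1.99, Pdk4 by -1.76, Ppargc1a by -0.88, Irs2 by -0.86, Irs1 by -0.46 and Insr by -0.42. Foxo1 differed by -0.28, Foxo4 by -0.25, Foxo3 by -0.21 and Pik3r1 by 0.20. The part of adipose tissue in the values of the 10 genes was not tested.

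The summed level of the endothelial list was also lower, between 11.13 and 11.24 with progesterone and between 11.46 and 11.95 with oil. Of its 6 genes 1, the tight junction gene Cldn5, passed (log2 change -0.91, limma adjusted p = 0.0217), and as the brightest of them it weighs most in the sum. Tek did not overlap between the groups either (-0.43). Pecam1, Cdh5, Kdr and Emcn overlapped, with log2 changes between -0.08 and -0.46. The part of the endothelium in the values of the 10 genes was not tested. Of the 6 stromal markers, Lum, a proteoglycan of the matrix, fell (log2 change -1.01, limma adjusted p = 0.0257) and Hand2, a transcription factor induced by progesterone, rose (0.64, limma adjusted p = 0.0157), while the summed level of the list was between 14.64 and 15.04 with progesterone and between 14.89 and 15.01 with oil. Of the 7 liver markers Ttr, the retinol and thyroxine carrier, rose (2.61, limma adjusted p = 0.0334), and Alb did not pass. The summed level of the skeletal muscle list was higher, between 10.56 and 11.45 with progesterone and between 9.53 and 9.83 with oil. Of its 8 genes the actin Acta1 alone passed (2.98-fold higher, limma adjusted p = 0.0149), and the muscle myosins Myh4 and Myh1 lay between 2.95 and 3.31 on all arrays, at background. Of 6 epithelial and 6 smooth muscle markers 0 passed. The keratin Krt18 was nevertheless lower on every progesterone array than on any oil array (log2 change -0.76, limma adjusted p = 0.0589). So were Myh11 (-0.39) and Tagln (-0.20) of smooth muscle. The part of these cell types in the values of the 10 genes was not tested. Of 5 neutrophil markers 0 passed. They differed widely between arrays of the same group, and without the 3 arrays high in S100a8 the log2 change was -2.16 for Pik3ip1, -1.78 for Pdk4, -1.90 for Irs2 and -1.32 for Ppargc1a, from 1 progesterone array and 2 oil arrays.

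**Figure D3:**
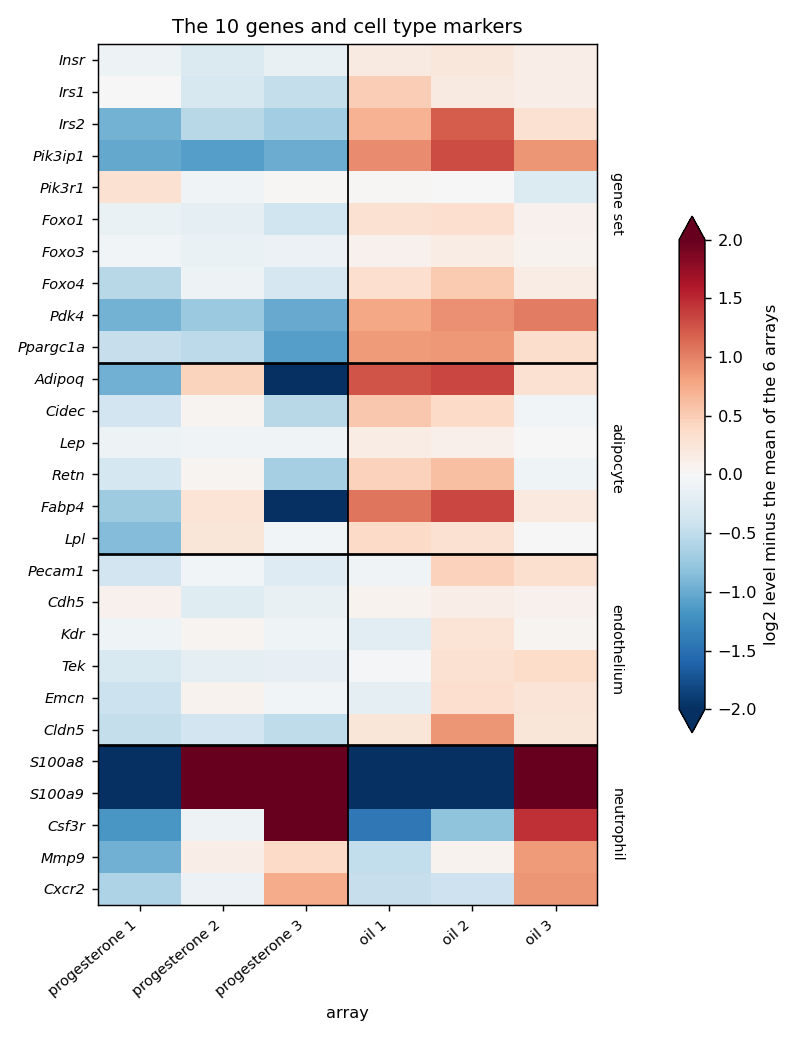
Log2 level minus the mean of the 6 arrays for the 10 genes and for adipocyte, endothelial and neutrophil markers; columns are the progesterone arrays, then the oil arrays, and the colour scale ends at -2 and 2. The 10 genes other than Pik3r1 separate the groups, the adipocyte markers do so only in part, and S100a8 and S100a9 are high on progesterone replicates 2 and 3 and on oil replicate 3.

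The limma fit was read for 164 further genes of the pathway in 6 lists, which do not include the 10 genes. Of these, 15 were higher and 24 lower after progesterone, or 9.15% and 14.6%, where 5.92% and 5.83% of all genes were higher and lower. The median log2 change of the 164 genes was -0.04. All 6 lists were chosen with earlier results of these arrays known, so the shares are a description and not independent evidence. Most of the lower genes came from the FoxO target list, while the other lists had between 0 and 3 lower genes each and medians between -0.04 and 0.07.

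**Figure D4:**
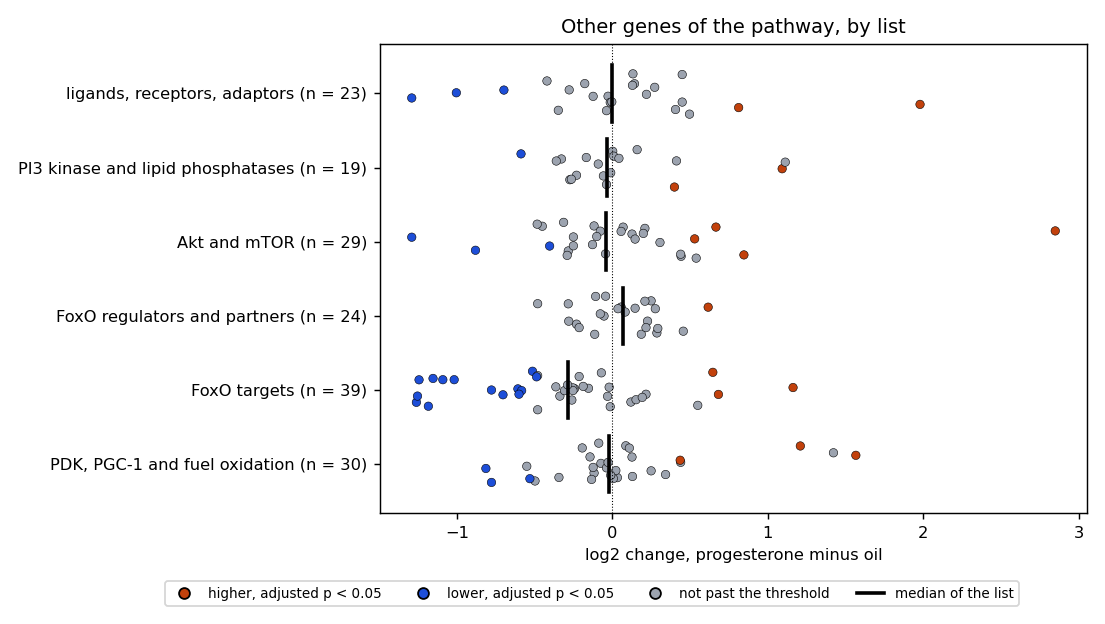
Log2 change (progesterone minus oil) of each of the 164 further pathway genes, by list, coloured by its call in limma; the vertical bar is the median of the list. The median of the FoxO targets is -0.29, and those of the other lists lie between -0.04 and 0.07.

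Upstream of PI3 kinase, 2 of 23 measured genes rose, 3 fell and 18 did not pass. Igf1, the growth factor that stroma makes under steroid control, was 11.77, 12.37 and 12.68 with progesterone, against 10.35, 10.25 and 10.28 with oil (3.94-fold higher, limma adjusted p = 0.00363). Its receptor Igf1r was 10.43, 10.17 and 9.95 with progesterone, against 10.92, 11.03 and 10.69 with oil (1.62-fold lower, limma adjusted p = 0.0282). Gab1, an adaptor that binds PI3 kinase beside the IRS proteins, fell 2.01-fold (8.43, 8.41 and 8.30 with progesterone, against 9.28, 9.54 and 9.33 with oil, limma adjusted p = 0.00316). Grb14, an adaptor that inhibits the insulin receptor, fell 2.45-fold (limma adjusted p = 0.00626). The adaptor Irs4 rose 1.76-fold (7.20 ± 0.0985 with progesterone and 6.39 ± 0.0751 with oil, SD, n = 3 each). The calls held in all 6 fits that left out 1 array, except that of Igf1r, which ended without progesterone replicate 2 or 3 or oil replicate 1 or 2 (adjusted p up to 0.108). Without progesterone replicate 1, 4 genes of the list were higher.

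Among 19 PI3 kinase subunits and lipid phosphatases, 2 rose, 1 fell and 16 did not pass. Pik3cg, the gamma catalytic subunit typical of white blood cells, rose 2.13-fold (5.99, 5.82 and 5.58 with progesterone, against 4.42, 4.73 and 4.96 with oil, limma adjusted p = 0.00972). Pik3r3, the p55 gamma regulatory subunit, rose 1.32-fold (adjusted p = 0.0458), a call that ended whichever array was left out (adjusted p 0.0878 to 0.149). Inpp5k, a lipid phosphatase that dampens insulin signalling, fell 1.5-fold (limma adjusted p = 0.0119), a call that ended without oil replicate 1 or 2 (adjusted p up to 0.0599). The summed level of 6 white blood cell markers, of which 0 passed, was between 11.12 and 12.64 with progesterone and between 11.28 and 12.63 with oil. With 1 array left out the list had 1 higher gene without progesterone replicate 1 or 3 or any of the oil arrays. It had 0 lower genes without oil replicate 1 or 2, and 2 without progesterone replicate 1. The alpha catalytic subunit Pik3ca did not pass (log2 change -0.23).

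Among 29 genes of the Akt and mTOR arm, 4 rose, 3 fell and 22 did not pass. Sgk1, a relative of Akt that also phosphorylates FoxO factors, rose to 11.52, 11.52 and 11.38 with progesterone, against 8.44, 8.36 and 9.07 with oil (7.21-fold, limma adjusted p = 0.0011). Eif4e, the cap-binding translation factor, rose 1.80-fold, Trib1, a pseudokinase, 1.59-fold and Tbc1d4, a regulator of glucose transporter traffic, 1.44-fold. Ddit4l, an inhibitor of mTOR complex 1, fell 2.45-fold (8.83 ± 0.0987 with progesterone and 10.12 ± 0.102 with oil, SD, n = 3 each, limma adjusted p = 0.00142). Deptor, a subunit that restrains mTOR, fell 1.84-fold, and Rictor, the core of mTOR complex 2, fell 1.32-fold. The calls of Sgk1, Eif4e and Ddit4l held in all 6 fits that left out 1 array and that of Deptor in 3 of them, ending without progesterone replicate 3 or oil replicate 1 or 2 (adjusted p up to 0.0659). The call of Trib1 held only without oil replicate 3 (adjusted p up to 0.114 otherwise), that of Tbc1d4 only without progesterone replicate 3 (up to 0.108) and that of Rictor only without progesterone replicate 1 (up to 0.106). The list had 2 higher genes without progesterone replicate 2 or oil replicate 1 or 2, and 1 lower gene without progesterone replicate 3 or oil replicate 1 or 2. With the replicate number as a block, 5 genes of the list were higher and 5 lower.

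FoxO regulators and partners were the list with the fewest calls, 1 of 24 higher and 0 lower. In limma 9 genes had an unadjusted p under 0.05. Prmt1, an arginine methyltransferase that can modify FOXO1, rose 1.53-fold (limma adjusted p = 0.0125), a call that ended without oil replicate 1 or 2 (adjusted p up to 0.0581). Without oil replicate 3 the list had 2 higher genes, and with the replicate block 1 was higher and 1 lower.

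In the FoxO target list, 14 of 39 measured genes fell, 3 rose and 22 did not pass, so 35.9% were lower where the share over all genes was 5.83%. The median log2 change was -0.29, against -0.02 over all genes. The list was written from textbook targets with earlier results of these arrays known, in which Ccng2, Gadd45a and Btg1 were already seen to be lower. Its direction is therefore not independent evidence. Many of these genes also answer to other factors.

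The 4 largest falls were those of Sesn3, Fbxo32, Tnfsf10 and Mxi1. Sesn3, a sestrin that restrains mTOR complex 1, was 8.73, 8.59 and 8.60 with progesterone, against 9.90, 9.89 and 9.91 with oil (2.40-fold lower, limma adjusted p = 0.0011). Fbxo32, the ubiquitin ligase atrogin-1 of wasting muscle, was 10.10, 10.47 and 10.09 with progesterone, against 11.34, 11.53 and 11.55 with oil (2.38-fold lower, limma adjusted p = 0.00346). For both genes the lowest oil array stood well above the highest progesterone array. Tnfsf10, the death ligand TRAIL, was 6.6, 6.88 and 7.01 with progesterone, against 7.81, 8.08 and 8.33 with oil (2.37-fold lower, limma adjusted p = 0.00632). Mxi1, a repressor that opposes Myc, was 8.22, 8.25 and 8.25 with progesterone, against 9.37, 9.55 and 9.35 with oil (2.27-fold lower, limma adjusted p = 0.00142). The other 10 lower genes changed by between -0.49 and -1.15 on the log2 scale and were Gadd45a, Txnip, Gabarapl1, Ccng2, Btg1, Sesn1, Bcl6, Cdkn1b, Trp53inp1 and Ulk1, named here after their values were seen. For Btg1, Cdkn1b, Trp53inp1 and Ulk1 none of the further probe sets passed, and Gadd45a had no further one. For Sesn1 1 of 3 passed as lower, and for Txnip, Gabarapl1, Ccng2 and Bcl6 the only further one did.

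The genes that rose were Sesn2, a sestrin induced by stress of the endoplasmic reticulum and amino acid lack, Cited2, a coregulator, and Sod2, the mitochondrial superoxide dismutase. Sesn2 was 7.13, 7.43 and 6.94 with progesterone, against 5.86, 5.95 and 6.2 with oil (2.24-fold higher, limma adjusted p = 0.00624). Sesn2 and Sesn3 changed in opposite directions. Cited2 rose 1.61-fold and Sod2 1.57-fold, and the classical liver targets Igfbp1, Pck1 and G6pc did not pass (log2 changes -0.31, -0.25 and -0.01). These liver targets lay at or near background on all arrays (Igfbp1 3.11 to 3.70, Pck1 3.26 to 3.76, G6pc 3.23 to 3.54). Little can therefore be said of their response.

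The calls of the 7 genes given with values or folds here (Sesn2, Cited2, Sod2, Sesn3, Fbxo32, Tnfsf10 and Mxi1) held in all 6 fits that left out 1 array. Of the FoxO targets, 9 fell in the fit that left out oil replicate 1 and 8 in the fit that left out oil replicate 2, against 10 to 15 when another array was left out. Without both replicates 3, a fit chosen after seeing the data, 9 fell.

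**Figure D5:**
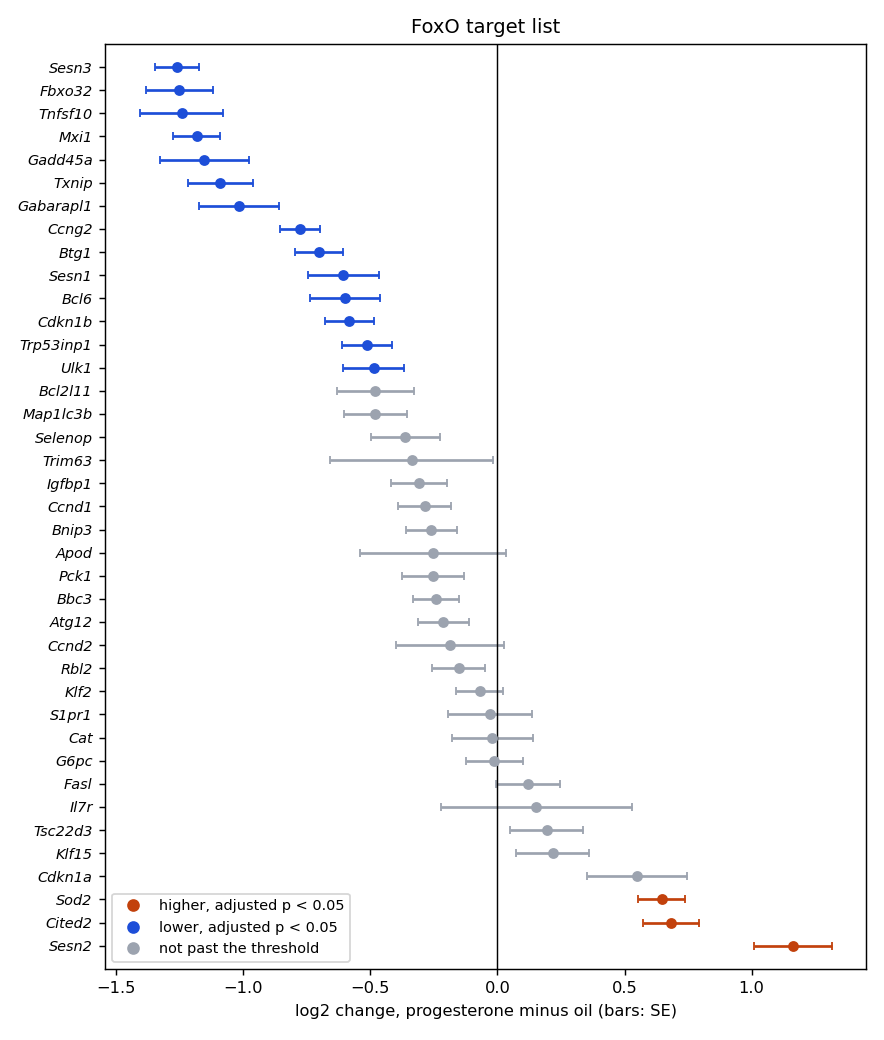
Log2 change (progesterone minus oil) with its SE for the 39 measured genes of the FoxO target list, coloured by its call in limma. The 14 lower genes range from Ulk1 at -0.49 to Sesn3 at -1.26, and 3 genes are higher.

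The consensus FoxO motif GTAAACA, searched on both strands in the RefSeq promoter windows, was present for 8 of the 33 FoxO targets with a window, or 24.2%, and for 4.05% of all 27025 genes with a window. Of the 8, Txnip, Sesn1, Btg1 and Mxi1 were lower and Bcl2l11, Trim63, Bbc3 and Selenop did not pass. Some FoxO targets were first recognised through such motifs, so the list is not independent of them. The stretches of 29 bases around the motif, in capitals and written in the direction of the gene (GRCm38.p6), are shown for the 4 lower genes.
Txnip, chr3:96557825-96557853, plus strand: ttggaggcctgGTAAACAagggccaagta
Sesn1, chr10:41810585-41810613, plus strand: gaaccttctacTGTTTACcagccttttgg
Btg1, chr10:96616786-96616814, plus strand: gggggtttattTGTTTACaagcagattac
Mxi1, chr19:53329453-53329481, plus strand: cgcgcggagaaGTAAACAaaccgcgcgcg
The motif began at base -121 of Txnip and -231 of Mxi1 on the strand of the gene, and at -204 of Btg1 and 23 of Sesn1 as its reverse complement.

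In the list of pyruvate dehydrogenase kinases, PGC-1 coactivators and fuel oxidation, 3 of 30 measured genes rose, 3 fell and 24 did not pass. Among the relatives of Pdk4 and Ppargc1a, Pdk3 and Pprc1 rose and Pdk2 fell. Pdk3, which phosphorylates the same enzyme as Pdk4, was 9.40, 9.03 and 8.82 with progesterone, against 7.43, 7.34 and 7.78 with oil (2.96-fold higher, limma adjusted p = 0.00413). Pprc1, the PGC-1 related coactivator, was 9.02, 9.0 and 8.75 with progesterone, against 7.85, 7.5 and 7.79 with oil (2.31-fold higher, limma adjusted p = 0.00357). Their arrays did not overlap between groups, and both calls held in all 6 fits that left out 1 array.

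Pdk2 fell 1.76-fold (limma adjusted p = 0.0393), and its call held only without progesterone replicate 1 (adjusted p up to 0.135 otherwise). Pdk1 and Ppargc1b did not pass (log2 changes -0.55 and 0.13). Lpin1, a phosphatidate phosphatase and coactivator partner of PGC-1 alpha, fell 1.71-fold (limma adjusted p = 0.00465), and Acadm, which oxidizes medium-chain fatty acids, fell 1.44-fold. The call of Acadm ended without progesterone replicate 2 or oil replicate 1 or 2 (adjusted p up to 0.0682). Nampt, an enzyme of NAD synthesis, rose 1.35-fold (adjusted p = 0.038), which ended whichever array was left out (adjusted p 0.0575 to 0.127). The list had 1 lower gene without progesterone replicate 2 or oil replicate 2. Among all the pathway genes named with a test, 0 had a further probe set that passed in the opposite direction. For Irs4, Grb14, Inpp5k, Trib1, Tbc1d4 and Nampt, however, none of the further probe sets passed in the same direction. For Rictor 1 of 4 did, and for Eif4e and Sod2 1 of 3. Sgk1, Pik3r3, Prmt1, Pdk2, Pdk3, Pprc1 and Acadm had no further probe set.

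The genes whose 6 values followed those of Pik3ip1 most closely, by Pearson correlation among 13915 genes at least as variable as Foxo3, were Arrdc3 and Mxi1 (r = 0.9991 each) and Pnrc1 (r = 0.9976). The arrays fall into the treatment groups, so these r values follow from the difference between the groups as well as from the order within them. Arrdc3, an arrestin-like protein, was 7.51, 7.42 and 7.54 with progesterone, against 8.79, 9.09 and 8.73 with oil. Like Pik3ip1, it was highest on oil replicate 2 and nearly level across the progesterone arrays. Within the axis, the r to Pik3ip1 over the same 6 arrays was 0.981 for Pdk4, 0.97 for Foxo3, 0.965 for Insr and 0.961 for Irs2. It was 0.939 for Ppargc1a, 0.922 for Foxo1, 0.909 for Foxo4, 0.817 for Irs1 and -0.446 for Pik3r1.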

How the data were processed

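Uterine RNA from ovariectomized GATA2 f/f mice was hybridised to 6 Affymetrix arrays of 1 colour, 3 per group, grouped by title. The authors deposited log2 expression for 45101 probe sets, made with Partek 6.6 and RMA per the submitters' processing notes. Other settings are not given in the sources used here.

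Probe sets were named from the platform annotation: 34945 had 1 gene symbol, 932 several and 9160 none, and 64 were controls. Gene identifiers of 34741 were found in RefSeq, and 0 symbols changed. Of 175 listed pathway genes, 164 were measured under a symbol of their own, Selenop through an older name. The rest were not analysed here. Progesterone was set against oil with limma 3.58.1 (R 4.3.3, lmFit and eBayes, without a block or a filter on dim genes), two-sided, with Benjamini-Hochberg adjustment over 18193 genes and a threshold of 0.05. No detection calls were used, so a low gene may be at background.

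The 10 genes, all lists and the motifs were chosen with earlier results of these data known. Named further genes are, per list, up to 4 past the threshold in each direction by size of change. The 3 genes most like Pik3ip1 were taken by correlation.

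Same-numbered arrays of the groups deviated from their group means together across genes (r = 0.523, 0.141 and 0.636). Oil replicate 2 correlated better with progesterone replicate 1 (r = 0.322) than with its own number. The labels do not say what a number shares. By the rule that each r is above 0.1, the numbers were taken as pairs, but only in the alternative fit with the replicate block. The main fit, which gave the calls and adjusted p-values reported, did not use pairs.

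On simulated data of the same size with 18193 genes, calls were made for 10 of 50 genes given a log2 change of 0.5, for 45 of 50 given 1 and for 48 of 50 given 2. Of 162 calls 10 were false. The simulated noise was independent between genes and arrays, without the shared deviations of same-numbered arrays given above. Far fewer genes were changed than in the real fit, which made 2137 calls, and the Benjamini-Hochberg adjustment depends on that share. These figures may therefore not carry over to the real arrays. Alternatives were quantile normalization, centred medians, an offset of 32, leaving out the lowest 25% of genes, the mean of probe sets, trended and robust eBayes, a threshold of 0.01, a smallest change of 1.5-fold, the replicate block and leaving out each array. Fits without both replicates 3 and without the 3 arrays with S100a8 above 10 were chosen after seeing the data. Promoter windows came from RefSeq with GRCm38.p6. Windows of opposite strands that overlap, 1671 in number, were all reverse complements, so they are written in the direction of the gene.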

Additional observations from a re-analysis of the deposited data

How the results depend on the processing

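Counts are of genes past the threshold in limma. Of the log2 changes of the 10 genes under the alternatives, 124 stayed within the spread between replicates of the value reported. The 6 others were Insr at -0.12, Foxo1 at -0.29 and Foxo3 at -0.12 with the mean of all probe sets, which takes in the dim ones, Pdk4 at -1.39 with the offset, and Irs2 at -1.90 and Foxo4 at -0.98 without the 3 arrays high in S100a8. Leaving out 1 of 3 arrays cannot move a change beyond that spread, and the balanced replicate block leaves the change itself unaltered. The count of 124 includes these fits, whose outcome was fixed, so it is no measure of stability. With the replicate block 1382 genes were higher and 1545 lower, and 20 pathway genes were higher and 29 lower, with 7 of the 10 genes lower, and no call of a named pathway gene changed. At an adjusted p of 0.01, 328 genes were higher and 243 lower, 9 pathway genes were higher and 12 lower, and 4 of the 10 genes were lower. At 1.5-fold or more, 674 genes were higher and 642 lower. With 1 array left out, between 379 and 848 genes were higher and between 278 and 907 lower, 12 to 27 pathway genes were lower, and 3 to 6 of the 10 genes. Without both replicates 3 there were 586 higher and 441 lower genes, 14 lower pathway genes and 4 of the 10 genes. Without the 3 arrays high in S100a8, which leaves 1 progesterone array against 2 oil arrays, the counts were 0 in limma throughout. Unadjusted p-values under 0.05 were then found for 1735 higher and 1644 lower genes. The spread in that fit comes from the 2 oil arrays alone and the lone progesterone array is assumed to vary like them, so it says nothing about stability. Normalization, centring, the offset, the filter, the mean of probe sets and the variance model kept all these counts within 1.5 times. Low probe sets near background limit what can be said of small changes.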
